A study of Mus musculus with 12 samples.

Results

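The mRNA levels of 10 imprinted genes were compared in E14TG2a cells, an established mouse embryonic stem cell line. The 10 genes were taken from a fixed list by Ensembl identifier, out of 56941 genes in the deposited table, and all 10 were found there. They were H19 (ENSMUSG00000000031), Igf2 (ENSMUSG00000048583), Igf2r (ENSMUSG00000023830), Cdkn1c (ENSMUSG00000037664), Peg3 (ENSMUSG00000002265), Mest (ENSMUSG00000051855), Peg10 (ENSMUSG00000092035), Plagl1 (ENSMUSG00000019817), Grb10 (ENSMUSG00000020176) and Sgce (ENSMUSG00000004631). The list itself pairs each identifier with its symbol. The rule used no measured value, but the genes were chosen with earlier results of these data known.

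The cells were of 3 genotypes: wild type (WT), Alkbh5 KO, and Alkbh5 del-cIDR, in which the enzyme lacks its C-terminal intrinsically disordered region. Alkbh5 removes the methyl group of N6-methyladenosine (m6A) from RNA, and the study asked what is altered when the enzyme or that region is missing. All groups grew in the same medium with serum, LIF, the MEK inhibitor PD0325901 and the GSK3 inhibitor CHIR99021. Levels come from the input libraries of an m6A immunoprecipitation experiment, which are fragmented polyA RNA before precipitation, with 2 libraries per genotype. The labels name neither clones nor separate cultures, so the p-values measure the spread between these libraries, which may be technical. Both KO columns share a label with a number whose meaning is not given, and the number of cell lines per genotype is not stated. A difference between genotypes can therefore not be told apart from a difference between lines. At this size, a single gene tested by exact permutation (two-sided) has a smallest possible p of 0.333, so the tests rest on a limma fit across all genes that borrows the spread from genes of like level.

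An imprinted gene is expressed mainly from the copy inherited from a given parent, often because the other copy carries silencing DNA methylation or is repressed by a noncoding RNA. Many imprinted genes act on fetal growth, and cultured embryonic stem cells are known for unstable imprints. Among the 10 genes, H19, Igf2r, Cdkn1c and Grb10 are usually expressed from the maternal copy, and Igf2, Peg3, Mest, Peg10, Plagl1 and Sgce from the paternal copy. The deposited values do not separate the copies, so nothing here is measured per allele.

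RefSeq promoter windows on GRCm38.p6 (250 bases before to 50 after a start) were found for 6 of the 10 genes. Shown 5′ to 3′ on the strand of the gene are windows of the 4 genes with an entry whose level differed between genotypes, with each CG dinucleotide, the site of DNA methylation, in capitals. They lie at chr6:30737800-30738099 (plus strand) for the downstream start of Mest, chr7:6730370-6730669 (minus) for Peg3, chr11:12037371-12037670 (minus) for the upstream start of Grb10 and chr17:12769657-12769956 (minus) for Igf2r.
Mest: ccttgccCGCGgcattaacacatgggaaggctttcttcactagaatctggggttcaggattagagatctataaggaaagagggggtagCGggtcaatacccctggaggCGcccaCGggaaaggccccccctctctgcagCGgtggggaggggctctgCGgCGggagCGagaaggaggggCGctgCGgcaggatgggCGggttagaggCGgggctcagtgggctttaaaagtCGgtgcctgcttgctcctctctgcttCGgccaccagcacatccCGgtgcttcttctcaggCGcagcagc
Peg3: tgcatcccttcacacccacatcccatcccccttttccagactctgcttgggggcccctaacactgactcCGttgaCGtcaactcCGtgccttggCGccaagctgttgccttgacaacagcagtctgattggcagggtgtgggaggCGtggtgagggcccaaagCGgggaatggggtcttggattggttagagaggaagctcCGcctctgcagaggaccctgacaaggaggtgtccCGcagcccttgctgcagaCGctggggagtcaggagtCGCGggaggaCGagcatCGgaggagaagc
Grb10: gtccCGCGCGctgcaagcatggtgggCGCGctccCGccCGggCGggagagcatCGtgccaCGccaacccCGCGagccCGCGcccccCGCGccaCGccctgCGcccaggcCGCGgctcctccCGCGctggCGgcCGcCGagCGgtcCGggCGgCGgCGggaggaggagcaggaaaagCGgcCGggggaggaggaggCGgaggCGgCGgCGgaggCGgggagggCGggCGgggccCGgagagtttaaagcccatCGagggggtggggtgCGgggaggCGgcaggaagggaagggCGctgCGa
Igf2r: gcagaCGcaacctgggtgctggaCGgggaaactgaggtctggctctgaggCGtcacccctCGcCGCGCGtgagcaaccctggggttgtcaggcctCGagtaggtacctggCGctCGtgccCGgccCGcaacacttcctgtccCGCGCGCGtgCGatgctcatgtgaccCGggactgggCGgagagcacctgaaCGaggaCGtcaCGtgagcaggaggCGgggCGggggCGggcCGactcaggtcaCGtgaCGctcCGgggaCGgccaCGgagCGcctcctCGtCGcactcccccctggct

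These windows differ in CG content. The Grb10 window holds 45 CG dinucleotides, Igf2r 34, Mest 17 and Peg3 13, against a median of 7 over 32544 windows of the same length. A count as high was found in 1.95% of all windows for Grb10, 7.80% for Igf2r, 31.6% for Mest and 38.2% for Peg3. Other starts of the same genes differ: a further Grb10 window holds 9 CG and a further Mest window 8, counts reached in 46.1% and 48.9% of windows, and neither holds the hexamer below. This hexamer, TGCCGC, known as the recognition sequence of ZFP57, a factor that maintains imprints, was searched on both strands. It occurred 2 times in the Mest window, 1 time in that of Grb10 and in neither of the others, and 11.7% of all windows hold it. The GC box GGGCGG, also on both strands, occurred 5 times in Grb10, 3 times in Igf2r, 1 time in Mest and not in Peg3, and is held by 35.9% of all windows. No match to the one motif overlapped a match to the other in these windows. Such matches are letters in a window, not evidence that a factor binds there.

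Mest, H19 and Igf2 also carry microRNAs within their RefSeq gene spans. Those of Mest and H19 are shown because the level of the host gene was called different between genotypes, and miR-483 in Igf2, which was not tested, is only named. The seed (bases 2 to 8) is in capitals, and no 2 of the 4 shown share a seed. The microRNAs themselves were not measured.
miR-335-5p in Mest: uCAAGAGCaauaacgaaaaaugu
miR-335-3p in Mest: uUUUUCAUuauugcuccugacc
miR-675-5p in H19: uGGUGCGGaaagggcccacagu
miR-675-3p in H19: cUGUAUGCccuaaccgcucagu

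Input libraries held between 19918177 and 36678609 reads in genes, and 1 read is worth 0.0273 to 0.0502 RPM, that is, reads per 1000000 reads in genes. Levels are given below in RPM, a share of the library that is compared between genotypes for 1 gene at a time and not between genes, since gene lengths were not used. Genes with a mean of at least 0.25 RPM were tested, 19035 in all, and 9 of the 10 genes passed, Igf2 being the exception. Changes are on the log2(RPM + 0.25) scale, which understates the change of low genes, and a gene counts as called when its limma p adjusted over all genes tested is under 0.05. In bulk RNA, fewer cells with a transcript and less of it per cell cannot be told apart. Alkbh5 itself and markers of stem cells and other cell types were not analysed here, because the table lists identifiers without symbols. The kit keeps strand, but whether the counting used it is not stated, so reads of Igf2r and its antisense transcript Airn, or of Mest and its convergent neighbour Copg2, may not be separated.

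In KO cells the 10 genes split. Mest, a gene for a protein related to hydrolases, rose 3.03-fold as a share of the library, and Peg3 and Peg10 rose by smaller amounts on that scale but not on the deposited one, while Grb10, Igf2r and H19 fell against WT. Here and below, all genes means the 19035 genes tested. Of the 9 listed genes tested, 3 were called higher, where the same fit called 12.7% of all genes higher. Another 3 were called lower, where it called 11.6% of all genes lower. The median change of the 9 genes tested was -0.13, against 0.00 over all genes, and their median absolute change was 0.44, against 0.21. In del-cIDR cells, 4 of the 9 (Grb10, Cdkn1c, Peg3 and Mest) were called lower than in WT, where 6.14% of all genes were. None was called higher, where 3.86% of all genes were. None of the 9 had a higher level at an unadjusted p under 0.05 either (0 genes), and edgeR called 0 higher. The median change in del-cIDR was -0.25 over the 9 genes and -0.01 over all. Both comparisons use the same WT libraries.

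**Figure D1:**
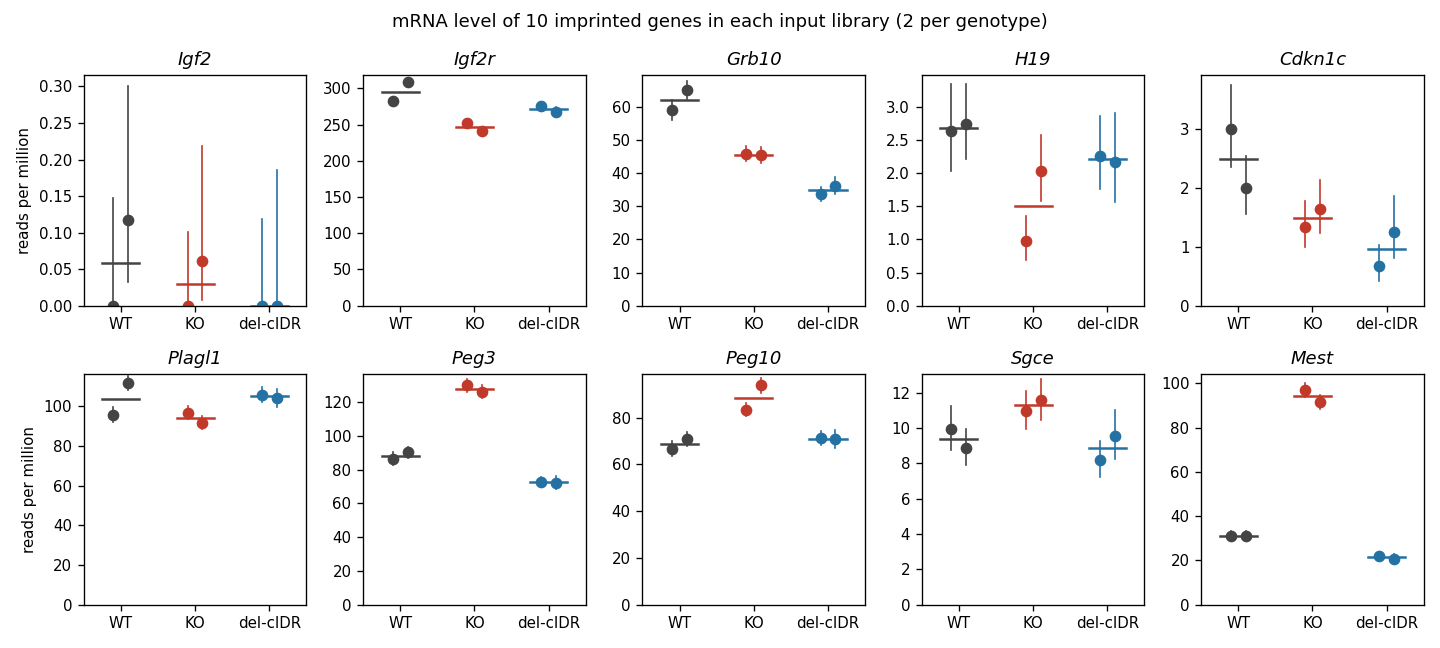
RPM, reads per 1000000 reads in genes (linear axis from 0, a separate scale per gene) of the 10 genes in the 2 input libraries of WT, KO and del-cIDR; points are libraries, thin bars exact 95% binomial intervals that cover counting error only, and horizontal lines genotype means. Mest stands at 97.1 and 91.6 in KO against 30.8 and 31.2 in WT, while Igf2 has no more than 4 reads in any library.

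Mest had the largest change of the 9 genes in KO against WT and in del-cIDR against KO. Its level was 30.8 and 31.2 RPM in WT libraries, 97.1 and 91.6 in KO libraries and 21.8 and 20.7 in del-cIDR libraries. The 3 genotypes did not overlap, and replicates of a genotype differed by no more than 1.06 times. The rise in KO was 1.60 on the log2 scale (SE 0.08, limma adjusted p = 3.97e-12). The fall in del-cIDR against WT was -0.54 (SE 0.08, adjusted p = 0.000119), so the altered genotypes lay on opposite sides of WT. Set directly against KO, del-cIDR was 4.39-fold lower, a log2 change of -2.14 (SE 0.08, adjusted p = 1.80e-14). The size of these p-values rests largely on the spread borrowed from other genes. Without the variance trend the limma adjusted p was 0.00816 in KO against WT and 0.00253 in del-cIDR against KO. In del-cIDR against WT it was 0.0836. Mest had 413 to 3563 reads per library.

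Peg3, a large zinc finger protein gene with roles in growth and maternal behaviour, had the same order with smaller steps. Its level was 86.6 and 90.2 RPM in WT libraries, 130.0 and 126 in KO libraries and 72.7 and 72.1 in del-cIDR libraries. All 3 genotypes were again apart, with KO highest and del-cIDR lowest. The change was 0.53 in KO against WT (SE 0.06, limma adjusted p = 1.81e-06), -0.29 in del-cIDR against WT (SE 0.06, adjusted p = 0.00546) and -0.82 in del-cIDR against KO (SE 0.06, adjusted p = 2.13e-09). Without WT replicate 2 the del-cIDR change from WT was -0.26 and was no longer called (adjusted p = 0.0568). On the deposited scale its KO mean was below that of WT (-0.39).

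Plagl1, a zinc finger factor that restrains cell growth and regulates other imprinted genes, did not pass in any comparison. It stood at 95.8 and 112 RPM in WT libraries, 96.8 and 91.7 in KO libraries and 106 and 104 in del-cIDR libraries. The KO range overlapped that of WT, and both del-cIDR libraries lay between the WT libraries. The change was -0.13 in KO (SE 0.07, limma adjusted p = 0.187) and 0.021 in del-cIDR (SE 0.07, adjusted p = 0.894), both against WT. Without WT replicate 1, the lower of the pair, the KO change was -0.24 and was called (adjusted p = 0.0316), and that of del-cIDR was -0.088 (adjusted p = 0.539). Against KO, del-cIDR stood 0.16 higher (SE 0.07, adjusted p = 0.0967), which was called with edgeR and with limma on TMM library sizes or centred on library medians.

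Of the insulin-like growth factor axis, the ligand gave almost no reads. Igf2, which encodes the fetal growth factor, had 0 and 4 reads in WT libraries, 0 and 2 in KO libraries and 0 and 0 in del-cIDR libraries. At 0 of 50896245 reads, the del-cIDR libraries together allow up to 0.0589 RPM (3 counts, counting error only), and the WT mean was 0.0588. No difference between genotypes was detectable at this depth, and no fold is given.

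Igf2r, the receptor that takes Igf2 to lysosomes, was read in every library and fell in KO. Its level was 282 and 309 RPM in WT libraries, 252 and 241 in KO libraries and 276 and 267 in del-cIDR libraries. KO lay below WT in both libraries, by -0.26 (SE 0.06, limma adjusted p = 0.00222). This call was lost without KO replicate 2 (-0.23, adjusted p = 0.0739). The del-cIDR libraries lay between those of KO and WT without overlap, and neither step passed: the change was -0.12 from WT (SE 0.06, adjusted p = 0.220) and 0.14 from KO (SE 0.06, adjusted p = 0.0698). The step from KO was called with edgeR (0.16, adjusted p = 0.0343), and without WT replicate 1 or 2 (adjusted p = 0.0421 and 0.0428).

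Grb10, an adaptor protein that dampens signalling from insulin and IGF receptors, fell in both altered genotypes. Its level was 59.0 and 65.1 RPM in WT libraries, 45.9 and 45.4 in KO libraries and 33.6 and 36.2 in del-cIDR libraries. No 2 genotypes overlapped, and del-cIDR, not KO, was lowest. The change from WT was -0.44 in KO (SE 0.08, limma adjusted p = 0.000220) and -0.82 in del-cIDR (SE 0.08, adjusted p = 5.87e-07). The difference between the altered genotypes was itself called, at -0.38 (SE 0.08, adjusted p = 0.000522). Among the 10 genes, Grb10 was the 1 gene called in the same direction in both genotypes against WT, and Mest and Peg3 were called in opposite directions, with the deposited scale turning the sign for Peg3 in KO. On that scale Grb10 was higher in del-cIDR than in KO (0.32).

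H19 and Cdkn1c, both usually expressed from the maternal copy in the same chromosomal region, were low and rest on few reads. H19, a noncoding RNA that shares its imprinting control with Igf2, had 66 and 93 reads in WT libraries, 36 and 67 in KO libraries and 70 and 43 in del-cIDR libraries. In RPM this was 2.63 and 2.73 in WT libraries, 0.981 and 2.03 in KO libraries and 2.26 and 2.16 in del-cIDR libraries. The KO libraries lay below all others but were 2.07-fold apart. The KO change from WT was -0.81 (SE 0.27, limma adjusted p = 0.0310). Leaving out WT replicate 1 gave -0.83 (adjusted p = 0.126), leaving out WT replicate 2 gave -0.78 (0.141) and leaving out KO replicate 1 gave -0.36 (0.498), so the call was lost in each case. Leaving out KO replicate 2 moved the change to -1.25 (adjusted p = 0.00486). DESeq2 did not call it (adjusted p = 0.0939). In del-cIDR the change from WT was -0.25 (SE 0.27, adjusted p = 0.618). Against KO it was 0.55 (SE 0.27, adjusted p = 0.116), and 1.00 without KO replicate 2, where it was called (adjusted p = 0.0176).

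Cdkn1c encodes an inhibitor of cyclin-dependent kinases that slows the cell cycle. It had 75 and 68 reads in WT libraries, 49 and 54 in KO libraries and 21 and 25 in del-cIDR libraries, or 2.99 and 2.00, 1.34 and 1.64, and 0.678 and 1.26 RPM. Both altered genotypes lay below WT, with del-cIDR lowest, but the exact 95% interval of the higher del-cIDR library, 0.812 to 1.85, reached past both KO libraries. The fall in del-cIDR against WT was -1.19 (SE 0.29, limma adjusted p = 0.0101), and the del-cIDR mean was 0.388 times that of WT. It was -0.93 (adjusted p = 0.147) without WT replicate 1 and -0.84 (0.0773) without del-cIDR replicate 1, and no longer called. In KO the change was -0.64 (SE 0.29, adjusted p = 0.112), which did not pass. Against KO, del-cIDR had a change of -0.55 (SE 0.29, adjusted p = 0.147), called without del-cIDR replicate 2 (-0.90, adjusted p = 0.0343).

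Peg10, derived from a retrotransposon and needed in the placenta, and Sgce, which encodes epsilon-sarcoglycan of the cell membrane, are neighbours transcribed away from each other. Peg10 stood at 66.5 and 70.7 RPM in WT libraries, 83.4 and 93.7 in KO libraries and 71.1 and 70.7 in del-cIDR libraries. Both KO libraries were above the rest, and the del-cIDR range overlapped that of WT. The change was 0.36 in KO against WT (SE 0.07, limma adjusted p = 0.000576) and -0.32 in del-cIDR against KO (SE 0.07, adjusted p = 0.00132). Without KO replicate 2 these were 0.28 (adjusted p = 0.0550) and -0.23 (0.0886), and neither was called. Without the variance trend neither was called (limma adjusted p = 0.0726 and 0.0688). Both directions turned on the deposited scale (-0.56 and 0.39). In del-cIDR against WT the change was 0.047 (SE 0.07, adjusted p = 0.746).

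Sgce also had its highest mean share in KO, but no comparison passed, and on the deposited scale its KO mean was below that of WT (-0.66). It stood at 9.92 and 8.87 RPM in WT libraries, 11.0 and 11.6 in KO libraries and 8.20 and 9.54 in del-cIDR libraries. KO was above both other genotypes, which overlapped. The change was 0.26 in KO against WT (SE 0.13, limma adjusted p = 0.177), -0.083 in del-cIDR against WT (SE 0.13, adjusted p = 0.768) and -0.34 in del-cIDR against KO (SE 0.13, adjusted p = 0.0530). The last was called without del-cIDR replicate 2 (-0.45, adjusted p = 0.0280). Without del-cIDR replicate 1 the change from WT was 0.023, on the other side of 0.

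**Figure D2:**
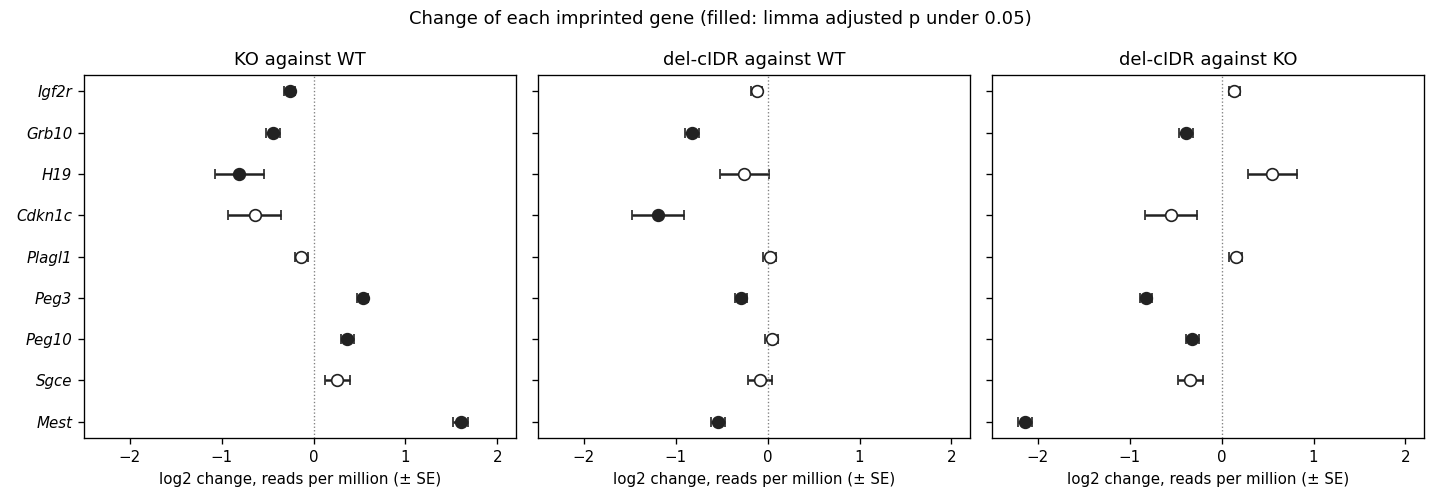
Log2 change of the 9 genes tested (x axis, log2 of RPM + 0.25) with the SE of the limma fit, in KO against WT, del-cIDR against WT and del-cIDR against KO; filled points have an adjusted p under 0.05. Mest lies at 1.60, -0.54 and -2.14 in the 3 panels, and the filled points of both del-cIDR comparisons are below 0. On the deposited scale Peg3, Peg10 and Sgce in KO against WT, and Grb10, Cdkn1c, Peg10 and Sgce in del-cIDR against KO, lie on the other side of 0.

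Between the altered genotypes, lower shares were called in del-cIDR for Mest, Peg3, Peg10 and Grb10. These 4 of the 9 genes tested stand beside 19% of all genes called lower in that comparison. None was called higher with limma, where 16.2% of all genes were, although 2 genes, Igf2r and Plagl1, had an unadjusted p under 0.05. Both were called higher with limma on TMM library sizes (adjusted p = 0.0336 and 0.0477) or centred on library medians (0.0184 and 0.0248), and with edgeR (0.0343 and 0.0469). DESeq2 called Igf2r (0.0337) and not Plagl1 (0.0793). The median change of the 9 genes was -0.34, against -0.02 over all genes. On the deposited scale Grb10 and Peg10 had higher means in del-cIDR than in KO (0.32 and 0.39), where the median of all genes was 0.68.

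Sorted by the copy usually expressed, all 4 maternally expressed genes had lower means in KO and in del-cIDR than in WT. Their median change was -0.54 in KO, against 0.00 over all genes, with 3 of 4 called lower beside 11.6% of all genes. In del-cIDR it was -0.54, against -0.01 over all genes, with 2 of 4 called lower beside 6.14%. Of the 5 paternally expressed genes tested, 4 had a higher mean in KO and 3 were called higher, beside 12.7% of all genes (median change 0.36), while on the deposited scale 1 of the 5, Mest, had a higher mean in KO. Against WT, in del-cIDR 3 of the 5 had a lower mean and 2 were called lower, beside 6.14% of all genes (median change -0.083). With 4 and 5 genes, these counts are a description only. This sorting was made after the deposited values had been seen, it was not tested, and the comparisons share the WT libraries.

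Ratios of reads between genes of the same library do not depend on any scaling between libraries. They follow from the shares given above, so they are no separate support. A ratio also does not say which of its genes differed: in KO, Peg3 was called higher and Igf2r lower than in WT. The ratio of Mest to Peg3 reads was 0.355 and 0.345 in WT libraries, 0.747 and 0.726 in KO libraries and 0.300 and 0.287 in del-cIDR libraries. The ratio of Mest to Igf2r reads was 0.109 and 0.101 in WT libraries, 0.386 and 0.380 in KO libraries and 0.0791 and 0.0775 in del-cIDR libraries. In both ratios KO was highest and del-cIDR lowest, without overlap. The ratio of Grb10 to Igf2r reads was 0.209 and 0.211 in WT libraries, 0.182 and 0.188 in KO libraries and 0.122 and 0.136 in del-cIDR libraries, again without overlap. For the neighbours Peg10 and Sgce the ratio was 6.71 and 7.97 in WT libraries, 7.61 and 8.10 in KO libraries and 8.67 and 7.42 in del-cIDR libraries. Here every pair of genotypes overlapped.

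**Figure D3:**
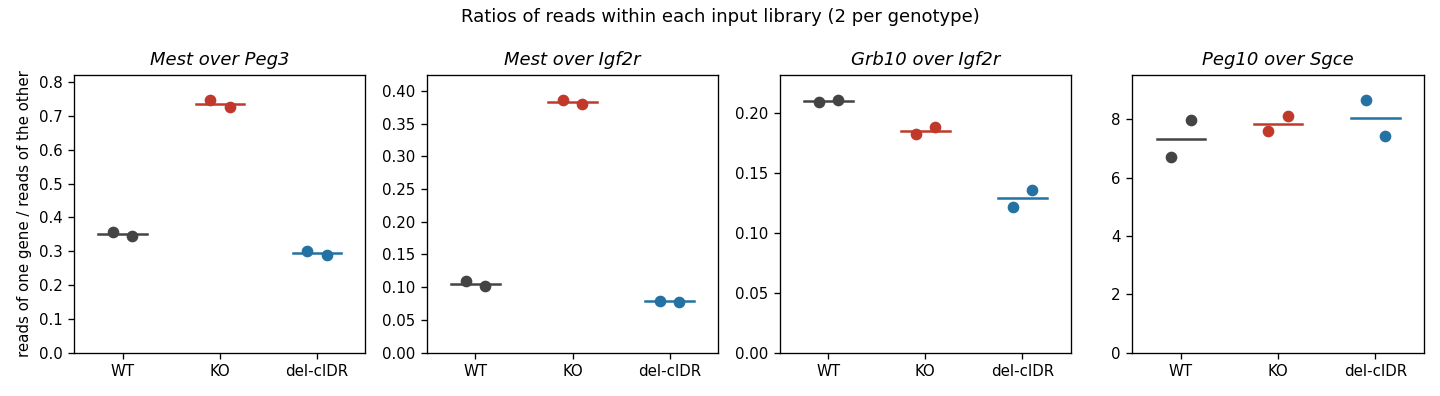
Reads of one gene over reads of another in the same input library (linear axis from 0) for 4 pairs, with 2 libraries per genotype as points and genotype means as lines. Mest over Peg3 is 0.747 and 0.726 in KO against 0.287 to 0.355 elsewhere, while Peg10 over Sgce overlaps between all genotypes.

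In the values as deposited, reads are multiplied by 1 factor per library, from 2.98 in WT replicate 1 to 1 in KO replicate 2. The changes within a comparison shift together on this scale, and some of them turn sign. The median change over all tested genes was -0.92 in KO against WT, -0.23 in del-cIDR against WT and 0.68 in del-cIDR against KO on the log2(value + 1) scale. Mest was the 1 gene of the 9 with a higher mean in KO than in WT on this scale too, at 4399 and 3024 scaled reads in KO against 2305 and 2244 in WT. Its change was 0.68 and did not pass (limma adjusted p = 0.269), although the libraries did not overlap. Peg3 and Peg10 turned to lower means in KO, by -0.39 and -0.56 (adjusted p = 0.512 and 0.355), and so did Sgce, by -0.66 (0.267). Taking off the median of all genes largely removes the factors, so it returns nearly the changes in share and is no separate support. On that footing Mest stood at 1.60, Peg3 at 0.53, Peg10 at 0.36 and Sgce at 0.26. Plagl1 stood at -0.14, Igf2r at -0.27, Grb10 at -0.45, Cdkn1c at -0.72 and H19 at -0.91.

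The single call among the 10 genes on the deposited scale was the fall of H19 in KO, from 197 and 197 scaled reads in WT to 44.5 and 67 in KO. The change was -1.83 (limma adjusted p = 0.0254). In this comparison and on this scale, 832 of all 19035 genes were called lower and 11 higher. The median change of all genes was -0.92, and taking it off left H19 at -0.91. The call rests on 36 and 67 reads in the KO libraries. In del-cIDR none passed on this scale, against WT or against KO (0 and 0 with limma). Limma on the shares called 4 and 4, and edgeR on the recovered reads 4 and 6. The limma calls over all 19035 genes dropped as well, from 1902 and 6702 on the shares to 7 and 651 on the deposited scale. At an unadjusted limma p under 0.05 on the deposited scale there were 2 and 2 of the 9 genes, beside 551 and 3533 of all 19035. The factors of replicates differ within a genotype, so that Mest had 1875 and 961 scaled reads in the del-cIDR libraries, where it stood at 21.8 and 20.7 RPM. Whether the share of the library or the deposited scale is nearer to the amount per cell was not tested.

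**Figure D4:**
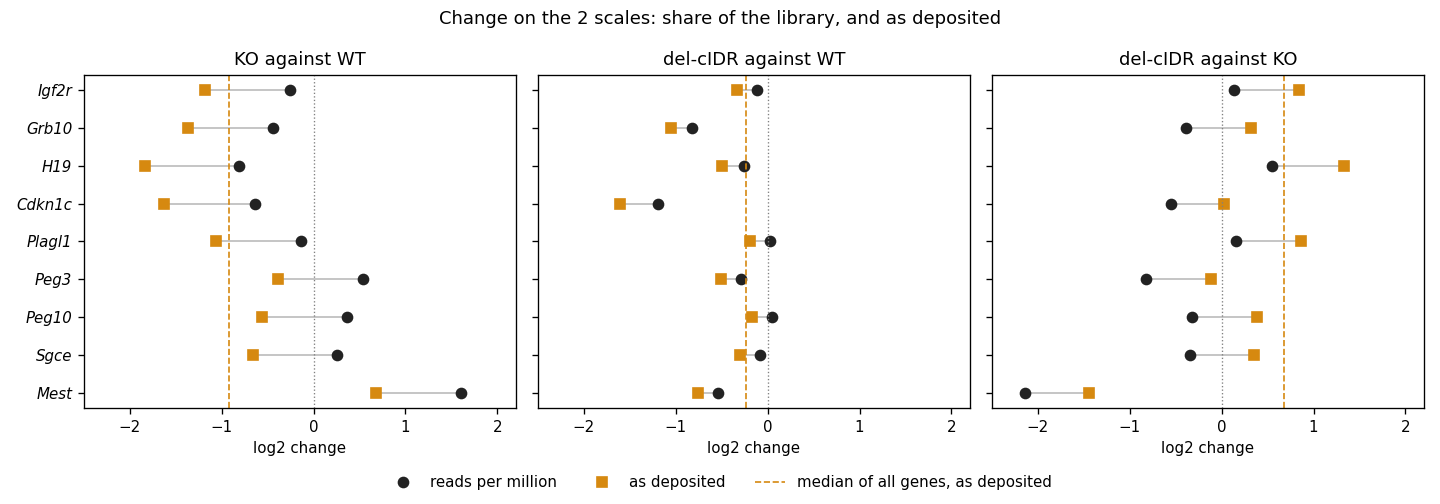
Log2 change of the 9 genes tested as a share of the library (black circles) and as deposited (orange squares), with the median deposited change of all tested genes as a dashed line, in the 3 comparisons. In KO against WT the dashed line lies at -0.92, Mest is above 0 on both scales, and Peg3, Peg10 and Sgce are on different sides of 0.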

How the data were processed

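MeRIP-seq input libraries of WT, KO and del-cIDR cells (2 each) were used. The authors deposited the mRNA values as a signal, gene reads times 1 factor per library; in KO replicate 2 the deposited values are counts. Dividing by the factor gave whole reads for 100% of values (tolerance 0.001 reads). Each factor is 1273 over a whole number (427 to 1273), and the same whole numbers fit the input side of the m6A control row in the deposited IP over input ratio table, judged from the values. Counting error of such a control is 2.80% to 4.84%. The submitters' processing notes list featureCounts, HISAT2, fastp, MACS2, Picard, bedtools and SAMtools, with the build GRCm39, and give no role or version; the gene models behind the counts are not stated there.

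For the tests, limma 3.58.1 under R 4.3.3 was run on log2(RPM + 0.25), with RPM per 1000000 reads in genes, of 19035 genes, 3 genotypes in 1 fit, with a variance trend and Benjamini-Hochberg adjustment. edgeR 4.0.16 quasi-likelihood on the recovered reads called 4870, 1908 and 6799 genes in the 3 comparisons, and DESeq2 1.42.0 was also run. The limma and edgeR fits were also run on simulated data with 1 fixed spread and changes larger than most of those called here. That run does not bear on the smaller changes. Replicates of a genotype differed by 3.02 to 6.50 times the sampling variance, so none are copies. The 10 genes are all named; members and lists were chosen with earlier results of these data known. The lists of other genes fixed by symbol, the stem cell markers and the m6A peaks at these genes were not analysed here: the RefSeq tables given (GRCm38.p6) matched 0 identifiers and are of another build than the peaks. Intervals cover counting error only. Tables and plots used Python 3.11.15.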

Additional observations from a re-analysis of the deposited data

How the results depend on the processing

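Among 486 refits of a change of 1 gene in 1 comparison, 431 kept direction and side of the threshold. With the direction kept, 29 lost and 15 gained a call. The direction changed in 11. Of these, Peg3 and Peg10 in KO against WT and Grb10 and Peg10 in del-cIDR against KO also lost their call. Some of the 486 refits alter only the spread, the filter or libraries outside the comparison. The change itself is fixed in them, so its direction could not turn. The calls of Mest, Grb10 and Peg3 in KO against WT and in del-cIDR against KO held in every alternative run other than the deposited scale. In del-cIDR against WT those of Mest and Grb10 were lost on that scale and without the variance trend (adjusted p = 0.0836 and 0.0729). Without the trend, limma also lost Igf2r (adjusted p = 0.116), H19 (0.152) and Peg10 (0.0726) in KO against WT. It lost Cdkn1c (0.157) and Peg3 (0.154) in del-cIDR against WT, and Peg10 (0.0688) in del-cIDR against KO. With no filter on low values, limma lost H19 in KO (0.123) and Cdkn1c in del-cIDR (0.0769), both against WT. With the values as deposited, 1, 0 and 0 of the 10 genes were called in KO against WT, del-cIDR against WT and del-cIDR against KO, in place of 6, 4 and 4, and without the variance trend 3, 0 and 3. The 0 without the trend is from limma, with 4 of the 9 genes at an unadjusted p under 0.05, beside 3620 of all 19035 genes. Leaving out 1 library gave 4 to 6, 3 to 4 and 4 to 6.

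With the values as deposited the direction changed for Peg3 (-0.39), Peg10 (-0.56) and Sgce (-0.66) in KO against WT, for Plagl1 (-0.20) and Peg10 (-0.17) in del-cIDR against WT, and for Grb10 (0.32), Cdkn1c (0.026), Peg10 (0.39) and Sgce (0.36) in del-cIDR against KO. It also changed in del-cIDR against WT for Plagl1 without WT replicate 1 (-0.088, and 0.13 without WT replicate 2) and for Sgce without del-cIDR replicate 1 (0.023; -0.19 when del-cIDR replicate 2 was left out instead).

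Of all genes, 4622, 1902 and 6702 were called in the 3 comparisons. As deposited these were 11 higher and 832 lower, 0 and 7, and 615 and 36. Without the trend the counts were 1917, 0 and 4162. In KO against WT 2711 were called without KO replicate 1 and 2587 without KO replicate 2, and in del-cIDR against KO 4393 and 4412. In del-cIDR against WT 1160 were called without WT replicate 1, 831 without WT replicate 2 and 1063 with no filter. A replicate block leaves each change as it was in this balanced design and alters only its spread, so direction could not turn. With it, 6, 4 and 4 of the 10 genes were called, and 27 of 27 changes kept their side of the threshold. Same-numbered libraries did not deviate together (correlations over genes of -0.11, -0.11 and 0.10), so the numbers were not taken as pairs. Few reads limit Igf2, H19 and Cdkn1c. The planned tests of m6A peaks were not run.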

Other observations

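Igf2r had the highest mean share of reads among the 10 genes, and its profile over the 6 input libraries was compared with those of 14850 other genes. The 3 nearest, by root mean square difference of log2 profiles centred on each gene's mean, were ENSMUSG00000000134 (0.023), ENSMUSG00000116947 (0.023) and ENSMUSG00000027610 (0.025), where the profile of Igf2r itself had a root mean square of 0.11. ENSMUSG00000000134 stood at 65.0 RPM in WT, 55.4 in KO and 61.4 in del-cIDR. These are descriptions over 6 libraries that share depth and genotype, with no test.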
